A study of Homo sapiens with 4 samples.

Results

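The lysyl oxidase family consists of 5 human genes, LOX, LOXL1, LOXL2, LOXL3 and LOXL4, and was examined in MDA-MB-231 cells after depletion of the receptor tyrosine kinase AXL. The members were chosen by gene symbol from the deposited table, where each of the 5 symbols had 1 row among 63677 genes. They lie on chromosomes 5 (LOX), 15 (LOXL1), 8 (LOXL2), 2 (LOXL3) and 10 (LOXL4), and all 5 passed the filter on low counts that left 16064 genes for testing. MDA-MB-231 is an established line from a triple-negative breast cancer. Cells received either control siRNA, the siCt group, or pooled siRNAs directed at AXL, the siAxl group, and 2 RNA-seq libraries represent each. Both groups went through transfection of the same line, so a group stands for 1 line and 1 siRNA reagent, and nothing in the labels says whether the 2 libraries of a group came from separate cultures. P-values therefore measure only the spread between these libraries, which may be technical. Reads assigned to genes ran from 39574387 to 44585773 per library. Values are normalized counts, that is reads per gene divided by a size factor of the library.

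AXL itself had 29189 and 30617 normalized counts with control siRNA and 8658 and 7141 after its depletion, which left 26.4% of the siCt mean (log2 fold change -1.93, limma adjusted p = 0.000585). Of the receptors that define a triple-negative tumour, ESR1 and PGR had at most 3.25 normalized counts in any library, whereas ERBB2 transcripts were present at 2949 to 3680. Of the mesenchymal markers, VIM and CD44 were at 33968 normalized counts or more in each library and SPARC at 18.2 to 55.4. ERBB2 was called higher in siAxl (log2 fold change 0.26, limma adjusted p = 0.0258), but not when every gene with at least 1 read was tested (adjusted p = 0.0724). The ERBB2 call was also lost without siCt 2, siAxl 1 or siAxl 2 (log2 fold changes of 0.22, 0.23 and 0.29). The epithelial markers went in opposite directions. EPCAM was at 565 and 625 in siCt and 711 and 771 in siAxl (0.32, limma adjusted p = 0.0513), and edgeR called it higher with either scaling (adjusted p of 0.043 and 0.0495). CDH1 was at 90.1 and 94.3 in siCt and lower in siAxl, at 36.9 and 22.6. The fibroblast markers PDGFRA, DCN and THY1, the endothelial markers PECAM1 and CDH5, and the T cell marker CD3E were at 0 to 1.97, VWF and PTPRC at 16.7 or less, and LUM and CD68 at 55.3 or less. PDGFRB was the fibroblast marker that rose, from 294 and 307 to 456 and 420 (log2 fold change 0.54, limma adjusted p = 0.0130). Its call was lost without siAxl 1 (adjusted p = 0.0736), and its part in the other results was not tested.

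Lysyl oxidases are secreted, copper-dependent amine oxidases. They oxidise lysine and hydroxylysine side chains of collagens and elastin to reactive aldehydes, which then condense into the covalent crosslinks that make matrix stiff and insoluble. LOX and LOXL1 are made as proenzymes that are activated by cleavage outside the cell, while LOXL2, LOXL3 and LOXL4 carry scavenger receptor cysteine-rich domains ahead of the catalytic domain. In breast cancer the family is known for matrix stiffening, invasion and preparation of metastatic sites, and LOX is a textbook target of hypoxia.

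All members share the copper-binding stretch of the catalytic domain, which a search found in the reference transcript of each. It is shown here as a short stretch that these genes have in common. The coding sequence over 33 bases is given 5′ to 3′ from GENCODE release 29 transcripts, with the 4 histidine codons in capitals.
LOX: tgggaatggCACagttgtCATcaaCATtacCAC
LOXL1: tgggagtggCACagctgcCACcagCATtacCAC
LOXL3: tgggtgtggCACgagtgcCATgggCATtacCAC
LOXL4: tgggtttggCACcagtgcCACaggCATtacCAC
Of the 33 bases, 23 were alike in these 4 genes and 21 in all 5. LOX and LOXL1 had 28 in common and LOXL3 and LOXL4 had 29, against 23 for LOX and LOXL4. At full length, no pair of members shared 50 or more identical bases between their coding transcripts.

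LOX, LOXL1 and LOXL2 were higher in siAxl, and the changes of LOXL3 and LOXL4 did not pass the test. LOX encodes the founding member of the family. Its normalized counts were 2904 and 2810 in the siCt libraries, replicate 1 first here and throughout, and 5005 and 4761 in the siAxl libraries. The groups were well separated, and libraries of a group were close to each other. The siCt mean of 2857 ± 67.1 compared with a siAxl mean of 4883 ± 173 (SD, n = 2 in each), or 171% of the siCt level. A log2 fold change of 0.77 was fitted with a standard error of 0.0577 and a 95% interval of 0.64 to 0.91 (limma adjusted p = 0.00136). By p, LOX stood at place 31 among the 16064 genes tested. In bulk RNA, a change in each cell and a change in the share of cells that express a gene cannot be told apart.

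LOXL1 encodes the relative of LOX best known for elastic fibre formation. Its normalized counts were 417 and 334 with control siRNA and 670 and 679 after AXL depletion. Both siAxl libraries were above both siCt libraries, with more spread between the siCt libraries. The means were 375 ± 59.0 and 675 ± 6.25 (SD, n = 2 in each), so that siAxl reached 180% of siCt. A log2 fold change of 0.85 had a 95% interval of 0.57 to 1.13 and a standard error of 0.119 (limma adjusted p = 0.00555). It was 0.69 without siCt 2 and 1.01 without siCt 1.

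LOXL2 encodes an oxidase that acts on type IV collagen and has also been described in the nucleus. It was the most abundant member, with 18262 and 19667 normalized counts in the control libraries and 23467 and 25383 in the AXL-depleted ones. Again both siAxl libraries were higher, by less in proportion than for LOX. Means of 18964 ± 993 and 24425 ± 1355 (SD, n = 2 in each) put siAxl at 129% of siCt. The log2 fold change of 0.36 carried a standard error of 0.0669 and a 95% interval of 0.21 to 0.52 (limma adjusted p = 0.0133). Its call was lost without siAxl 2 (adjusted p = 0.0603) and when every gene with at least 1 read was tested (adjusted p = 0.0557).

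LOXL4 was abundant and LOXL3 scarce, and neither was called. LOXL4 counts were 5030 and 5876 in the control libraries and 5523 and 5864 in the AXL-depleted ones. The siAxl libraries lay within the range of the siCt libraries, at a log2 fold change of 0.066 with standard error 0.0819 (limma adjusted p = 0.623). Its 95% interval ran from -0.13 to 0.26. A rise as large as the estimate for LOX or LOXL2 thus lies outside the interval of LOXL4, whereas a smaller change in either direction does not. LOXL3, by contrast, counted 49.9 and 49.8 in control libraries and 41.8 and 50.1 in AXL-depleted ones, where the groups overlapped. At 43 to 52 reads per library it showed a log2 fold change of -0.12 with standard error 0.204 (limma adjusted p = 0.725), and the 95% interval of -0.60 to 0.36 is wide. A rise as large as the estimate for LOX or LOXL1 lies outside this interval, whereas a small rise or a fall of moderate size does not.

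**Figure D1:**
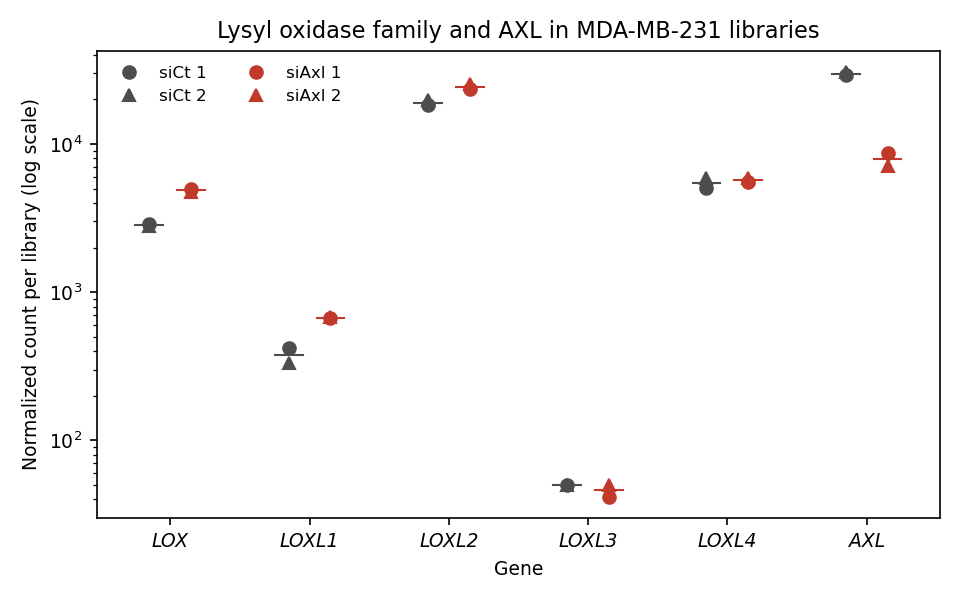
Normalized counts (log axis) of the 5 family members and AXL in each library, with circles for replicate 1, triangles for replicate 2 and a bar at the mean of the 2 libraries of a group. LOX, LOXL1 and LOXL2 lie higher in both siAxl libraries, LOXL3 and LOXL4 overlap between the groups, and AXL falls from about 29903 to 7900.

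Hence 3 of the 5 members passed an adjusted p of 0.05 in limma as higher, and 0 as lower. The edgeR and DESeq2 tests on the recovered reads also called LOX, LOXL1 and LOXL2 higher and 0 members lower, and LOXL3 and LOXL4 had unadjusted limma p-values of 0.571 and 0.446. Over all 16064 genes tested, 10.8% were called higher and 7.91% lower. With scaling by library size alone, 46.8% of all calls were higher instead of 57.7%, while the 3 members remained called and higher. Among the 1735 genes called higher, the median log2 fold change was 0.42. LOX and LOXL1 were above it, with 241 and 183 of these genes rising further. LOXL2 was below it, with 1058 rising further. An exact two-sided permutation test of 2 libraries against 2 cannot go below p = 0.333, so the calls depend on limma's estimate of spread from all genes together.

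Ratios between members within a library do not depend on the scaling of that library. The log2 ratio of LOX to LOXL2 counts was -2.65 and -2.81 with control siRNA, and -2.23 and -2.41 after AXL depletion. LOX thus gained on LOXL2 by 0.41 on average, with no overlap between the groups. The log2 ratio of LOXL2 to LOXL4 rose from 1.86 and 1.74 in siCt to 2.09 and 2.11 in siAxl. LOX and LOXL1, in contrast, kept overlapping ratios of 2.80 and 3.07 in siCt and 2.90 and 2.81 in siAxl. Of the 10 pairs of members, 8 had log2 ratios that did not overlap between the groups, but pairs share members. How often pairs of other genes separate in this way was not computed. These differences between members were compared by their values, with no test.

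Per length of annotated exon, the order of the members was LOXL2, LOXL4, LOX, LOXL1 and LOXL3 in every library. In siCt, LOXL2 had 3323 ± 174 normalized counts per kb, LOXL4 1493 ± 164, LOX 515 ± 12.1, LOXL1 103 ± 16.2 and LOXL3 11.4 ± 0.00334 (SD, n = 2 libraries each). Neighbours in this order were apart by more than their spread. Of 13081 protein-coding genes tested, 2.78% were above LOXL2 in level per kb, 9.46% above LOXL4, 23.2% above LOX, 63.6% above LOXL1 and 90.6% above LOXL3. The family sum was 5227 and 5664 per kb in the siCt libraries and 6720 and 7109 in the siAxl libraries, or 1.27 times the siCt mean. LOXL2 made up 61.0% ± 0.271 of it in siCt and 61.9% ± 0.969 in siAxl (SD, n = 2 in each). The share of LOX went from 9.48% ± 0.761 to 12.7% ± 0.957, and that of LOXL4 from 27.4% ± 1.45 to 22.5% ± 0.0566. The level of LOXL4 per kb did not fall, at 1493 ± 164 in siCt and 1559 ± 66.0 in siAxl. The lengths count all annotated exons of a gene alike, and with 1 coding transcript per gene the share of LOXL2 was 70.6% in siCt and 70.9% in siAxl. On those lengths the share of LOX went from 7.41% to 9.89% and that of LOXL4 from 19.7% to 16.1%.

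**Figure D2:**
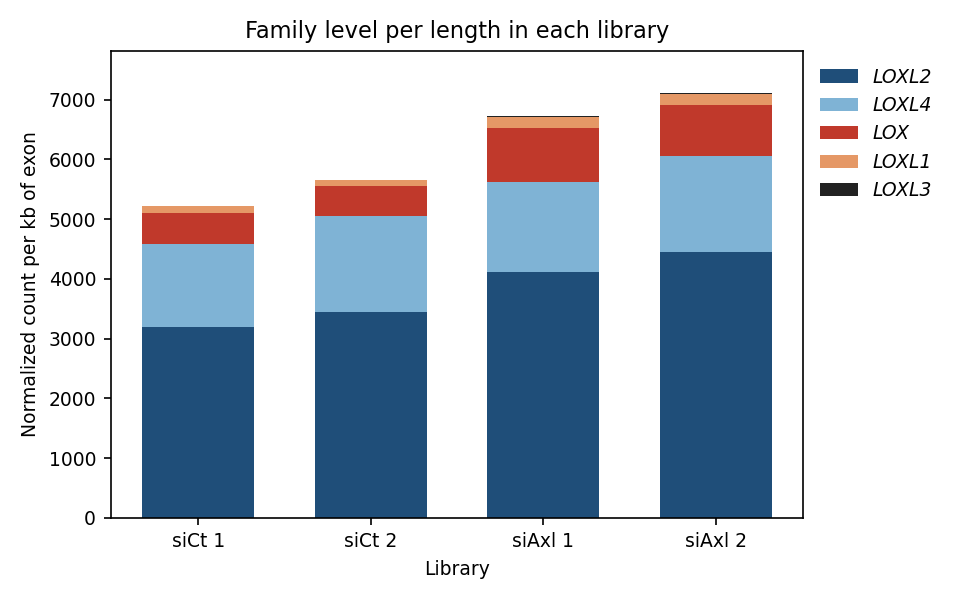
Normalized counts per kb of annotated exon in each library, stacked by family member. The siAxl bars reach 6720 and 7109 against 5227 and 5664 in siCt, LOXL2 is the largest segment throughout, and LOXL3 is barely visible.

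The exons of each member overlap those of another annotated gene, and whether reads were counted by strand is not given in the sources used here. Reads in a shared stretch can then not be assigned with certainty. SRFBP1, which shares 138 exon bases with LOX on the opposite strand, went the other way. It fell from 988 and 1138 normalized counts in siCt to 780 and 877 in siAxl (log2 fold change -0.36, limma adjusted p = 0.0456). That call was lost without siCt 2 (adjusted p = 0.115), without siAxl 1 (adjusted p = 0.195) and with every gene of at least 1 read tested (adjusted p = 0.131). LOXL1-AS1 shares 335 bases with LOXL1 on the opposite strand, which is 9.21% of the LOXL1 exons. It had 480 and 432 normalized counts in siCt and 539 and 550 in siAxl (log2 fold change 0.26, limma adjusted p = 0.0967), so both siAxl values were higher, as for LOXL1, but the difference passed the test only without siCt 1 among the fits that left out a library (0.33, adjusted p = 0.0496). ENTPD4 shares 120 bases with LOXL2 on the same strand and had a log2 fold change of 0.018 (limma adjusted p = 0.95). LOXL3 shares 625 bases with HTRA2 and 216 with DOK1, both on the opposite strand and both with more counts than LOXL3 itself (1144 to 1234 for HTRA2, 461 to 563 for DOK1). Their log2 fold changes were 0.054 (limma adjusted p = 0.637) and 0.27 (limma adjusted p = 0.0641). AC090197.1 and AL139241.1, which overlap LOXL2 and LOXL4 on the opposite strand, had at most 3.25 normalized counts in a library.

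**Figure D3:**
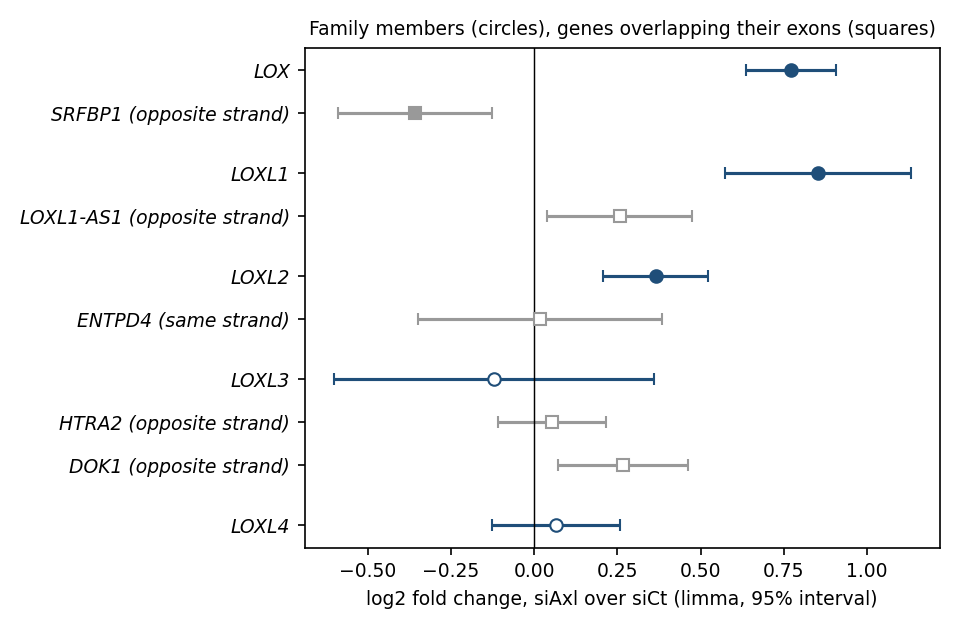
Log2 fold changes of siAxl over siCt with 95% intervals from limma for the 5 members (circles) and the tested genes that overlap their exons (squares), filled where the adjusted p was under 0.05. The intervals of LOX, LOXL1 and LOXL2 lie above 0, those of LOXL3 and LOXL4 span it, and SRFBP1 lies on the opposite side from LOX.

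Promoter sequence was compared for the members that rose and for LOXL4, which did not pass the test. RefSeq start sites of build GRCh38.p14 gave 7 windows for 4 members, each of 250 bases before and 50 after a start, and LOXL2 had none in the table. Windows were searched on both strands for ACGTG and GCGTG, the core of hypoxia response elements, CAGACA, a word bound by SMAD proteins, and TGACTCA, the AP-1 word, whose reverse complement is TGAGTCA. The 250 bases before the outermost start of 3 members are given 5′ to 3′ along the gene, with matched words in capitals.
LOX (chr5:122078260-122078509, minus strand): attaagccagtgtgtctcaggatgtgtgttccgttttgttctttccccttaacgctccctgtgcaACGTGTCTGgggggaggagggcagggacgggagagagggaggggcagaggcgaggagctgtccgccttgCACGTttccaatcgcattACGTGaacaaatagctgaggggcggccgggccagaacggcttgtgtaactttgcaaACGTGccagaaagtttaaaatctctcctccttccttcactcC
LOXL1 (chr15:73926212-73926461, plus strand): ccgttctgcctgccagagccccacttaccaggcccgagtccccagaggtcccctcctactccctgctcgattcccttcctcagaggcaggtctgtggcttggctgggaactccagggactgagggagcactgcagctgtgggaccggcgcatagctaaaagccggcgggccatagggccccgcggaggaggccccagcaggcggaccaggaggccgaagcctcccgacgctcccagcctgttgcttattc
LOXL4 (chr10:98268195-98268444, minus strand): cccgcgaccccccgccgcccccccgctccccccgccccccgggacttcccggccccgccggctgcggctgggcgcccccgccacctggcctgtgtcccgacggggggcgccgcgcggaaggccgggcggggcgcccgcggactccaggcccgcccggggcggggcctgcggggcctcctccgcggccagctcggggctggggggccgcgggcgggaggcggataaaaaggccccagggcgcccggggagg
The LOX window held ACGTG at 4 places, beginning 185, 116, 98 and 42 bases before the start, of which the one at 116 is on the reverse strand. It held CAGACA at 2 places, beginning 182 bases before the start, on the reverse strand and overlapping the first ACGTG, and 1 base before it, where the word runs across the start and only its first base is shown. Among all 35116 windows, 21.4% held ACGTG, 0.843% held it at 4 or more places (CACGTG counting as 2), and 16.9% held CAGACA. The windows of LOXL1 and LOXL4 held none of the words, although 36.5% of all windows held GCGTG and 4.95% the AP-1 word. Of the 3 LOX windows, only that of the outermost start held ACGTG at 4 places. The windows of LOX starts 2 and 3 overlap. Each held ACGTG at 1 place, beginning 68 and 117 bases before the start, and GCGTG at 1 place. LOXL3 held GCGTG at 1 of its 2 starts. The windows also differed in base composition, with 58.0% G and C for LOX, 67.3% for LOXL1 and 85.3% for LOXL4, beside a median of 58.7% over all windows. A match is a stretch of letters and not a shown binding site.

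Among the substrates of the enzymes, listed as fibrillar and basement membrane collagens and elastin, several genes rose as well. Of 18 genes, 12 were tested, of which 8 were called higher (66.7%) and 1 lower (8.33%), against 10.8% and 7.91% of all genes tested. Without siAxl 1, without siAxl 2 and with every gene of at least 1 read tested, 6 were called higher. The median log2 fold change was 0.41, and over all genes it was -0.0022. COL4A5, a basement membrane chain, rose from 1972 and 2001 normalized counts to 3000 and 3070 (log2 fold change 0.61, limma adjusted p = 0.00208). COL4A2, of the same class, had 5653 and 5735 against 7522 and 7722 (log2 fold change 0.42, adjusted p = 0.00393). The fibrillar chain COL27A1 rose by 0.84 on that scale (standard error 0.106, adjusted p = 0.00406). COL1A1, the main chain of type I collagen, was the member called lower, with 1546 and 1599 in siCt and 1350 and 1291 in siAxl (-0.25, standard error 0.0651, adjusted p = 0.0378). Its call was lost with 1 library left out in 3 of 4 cases (siCt 2, siAxl 1 or siAxl 2, adjusted p of 0.116, 0.107 and 0.185), with DESeq2 (adjusted p = 0.0661) and with every gene of at least 1 read tested (adjusted p = 0.0859). Its partner chain COL1A2, picked after its values were seen, was higher, at 225 and 248 in siCt and 352 and 309 in siAxl (0.48, adjusted p = 0.0333), and lost its call without siAxl 1 (0.181) or siAxl 2 (0.0541), with DESeq2 (0.0566) and with every gene of at least 1 read tested (0.0893). ELN, the gene of elastin, had 5 reads over the 4 libraries and was not tested.

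Enzymes and chaperones that modify and fold collagen inside the cell, before lysyl oxidases act on it outside, were listed next. All 20 genes of this list were tested, 14 were called higher (70.0%) and 0 lower by limma, edgeR and DESeq2 alike, and the median log2 fold change was 0.37. Over all genes tested, limma called 10.8% higher and 7.91% lower. No gene with a negative fold change in this list had an unadjusted limma p under 0.05. PLOD1 and PLOD2 encode lysyl hydroxylases, which form the hydroxylysine that lysyl oxidases can use. PLOD2 went from 10369 and 10449 normalized counts to 15431 and 15608, at a log2 fold change of 0.58 with standard error 0.0514 (limma adjusted p = 0.00184). PLOD1 had 9968 and 10032 against 14838 and 14955, at 0.57 (standard error 0.0512, adjusted p = 0.00184). For both genes the libraries of a group were within a narrow range and the groups far apart. SERPINH1, the collagen chaperone of the endoplasmic reticulum, rose by 0.61 (standard error 0.058, adjusted p = 0.00218). Without siAxl 2 the number called was 9 of 20.

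A further list held genes of maturation, copper supply and matrix attachment. Of 24 genes, 19 were tested, 6 were called higher (31.6%) and 0 lower by limma, 0 of those with a negative fold change had an unadjusted limma p under 0.05, and the median log2 fold change was 0.17. DESeq2 and edgeR also called 6 higher and 0 lower, but DESeq2 called LTBP4 (adjusted p = 0.0299) in place of ATP7B (adjusted p = 0.132). Over all genes tested, limma called 10.8% higher and 7.91% lower. FBN1, which encodes the fibrillin of microfibrils, rose from 1442 and 1634 normalized counts to 2644 and 2952 (log2 fold change 0.86 with standard error 0.0857, limma adjusted p = 0.00234). LTBP1, which binds latent TGF-beta to fibrillin, rose by 0.38 (standard error 0.0635, adjusted p = 0.00979). EFEMP2, also called fibulin-4, which tethers LOX to elastin precursors, rose by 0.59 (standard error 0.134, adjusted p = 0.0263). It was not called without siAxl 1 (adjusted p = 0.109) and with every gene of at least 1 read tested (adjusted p = 0.0875). For the remaining steps, genes were picked by role after the values were seen. BMP1, the protease that cleaves the LOX proenzyme, had 3693 and 3651 in siCt and 4554 and 4185 in siAxl (0.25, adjusted p = 0.0334), with a call lost without siAxl 1 (adjusted p = 0.209), without siCt 2 (0.0524), under library size scaling (0.051) and with every gene of at least 1 read tested (0.0946). The copper importer SLC31A1 had 3326 and 3306 against 3792 and 3980 (0.23, adjusted p = 0.0329), and its call was lost without siCt 2, siAxl 1 or siAxl 2 (adjusted p of 0.0758, 0.0903 and 0.183) and with every gene of at least 1 read tested (0.0813). ATP7A, the pump that loads copper onto secreted enzymes, did not pass the test, at 2170 and 2636 in control libraries and 2540 and 2828 in AXL-depleted ones (0.16, adjusted p = 0.305), but was called higher without siCt 2 (0.30, adjusted p = 0.0151). Without siAxl 1, and also with every gene of at least 1 read tested, the number called in this list was 2.

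Among regulators of LOX family transcription, the oxygen-sensing and TGF-beta genes, 20 were tested, 6 called higher (30.0%) and 2 lower. Their median log2 fold change was 0.021. The shares over all genes tested were 10.8% higher and 7.91% lower. The number of regulators called lower depended on the fit. It was 0 with every gene of at least 1 read tested and 8 with the replicate number as a block. HIF1A, whose level is picked out after its values were seen, encodes an oxygen-regulated transcription factor. It stood at 31911 and 32263 normalized counts in siCt and 32966 and 33814 in siAxl (log2 fold change 0.057, limma adjusted p = 0.522). This factor is controlled mainly at the level of its protein, which was not measured here. EPAS1, a related factor also named after its values were seen, had 3781 and 4695 in siCt and 3511 and 3630 in siAxl. It did not pass the test (-0.24, adjusted p = 0.139), but was called lower with the replicate number as a block (adjusted p = 1.89e-05). Without siCt 1, EPAS1 was called lower too (log2 fold change -0.40). EGLN1, a prolyl hydroxylase that marks the HIF1A protein for destruction and is itself a target, rose from 4473 and 4311 to 6238 and 6423 (0.53, standard error 0.0546, adjusted p = 0.00263). The TGF-beta receptors TGFBR2 (0.94, adjusted p = 0.00113) and TGFBR1 (0.54, adjusted p = 0.00223) rose, while TGFB2, a ligand, was lower (-0.32, adjusted p = 0.0226), as was SKIL, a repressor of SMAD proteins (-0.27, adjusted p = 0.042). The other ligands, added after their values were seen, were higher. TGFB1 went from 3150 and 2592 to 4178 and 4077 (0.53, adjusted p = 0.0112), and TGFB3 from 94.9 and 71.5 to 136 and 134 (0.70, adjusted p = 0.036). With every gene of at least 1 read tested neither was called (adjusted p of 0.0616 and 0.105), and TGFB3 was also not called without siCt 2 (0.101), siAxl 1 (0.117) or siAxl 2 (0.0979) or with DESeq2 (0.0827). The calls of TGFB2 and SKIL were lost with every gene of at least 1 read tested (adjusted p of 0.0802 and 0.0999), and also without siCt 2 (0.0533 and 0.176), siAxl 1 (0.0512 and 0.13) or siAxl 2 (0.0818 and 0.156). That of SKIL was lost with DESeq2 as well (0.0625).

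LOXL2 and LOXL3 have been described as partners of the repressor SNAI1, which silences CDH1, the gene of E-cadherin. Of the 16 genes listed around SNAI1, 14 were tested, 4 were called higher (28.6%) and 1 lower (7.14%), with a median log2 fold change of -0.016. Over all genes tested, these shares were 10.8% and 7.91%. The number called higher in this list was 1 with every gene of at least 1 read tested. It was also smaller with any 1 library left out. SNAI1 itself, also picked by role, had 54.7 and 78.0 normalized counts in siCt and 43.7 and 45.2 in siAxl, and did not pass the test (log2 fold change -0.55, limma adjusted p = 0.142), but was called lower without siCt 1 (-0.80, adjusted p = 0.0324). CDH1 fell from 90.1 and 94.3 to 36.9 and 22.6 (-1.64, standard error 0.261, adjusted p = 0.00847). EPCAM, an epithelial marker outside this list, did not fall (0.32, adjusted p = 0.0513). ZEB2, another repressor of CDH1, rose from 434 and 381 to 801 and 848 (1.02, standard error 0.0956, adjusted p = 0.0021). HSPA5, a chaperone of the endoplasmic reticulum, was higher by 0.34 (adjusted p = 0.0311), and XBP1, a factor of its stress response, by 0.23 (adjusted p = 0.0319). Both lost their call without siAxl 2 (adjusted p of 0.14 and 0.172) and with every gene of at least 1 read tested (0.106 and 0.0775), and XBP1 also without siCt 2 (0.083) or siAxl 1 (0.0963). TWIST1 and TWIST2 had 0 reads in each library, which allows up to 3 reads, for counting error only. Of the other copper amine oxidases, a separate enzyme class, AOC2 and AOC3 were tested and 0 called by limma, edgeR or DESeq2, with 0 at an unadjusted limma p under 0.05, and AOC1 had 0 reads.

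**Figure D4:**
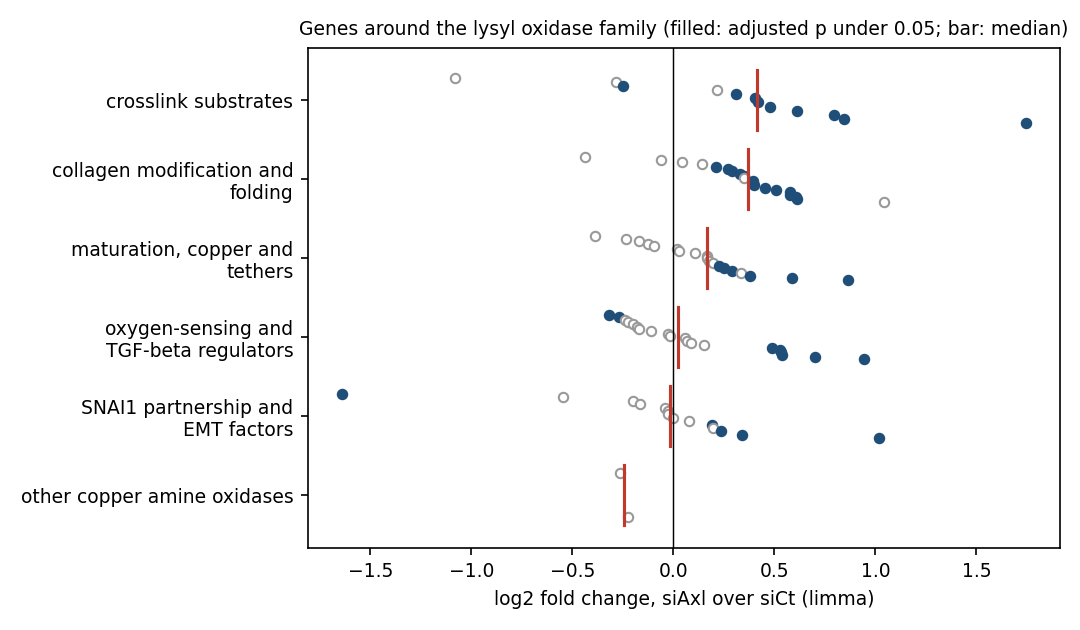
Log2 fold changes of siAxl over siCt for the tested genes of the 6 lists, 1 point per gene, filled where the limma adjusted p was under 0.05, with a bar at the median of each list. The bars of the substrates (0.41) and of the collagen modifying and folding genes (0.37) lie furthest to the right, and those of the regulators (0.021) and of the SNAI1 list (-0.016) lie near 0.

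For each member, the tested genes with the most similar pattern over the 4 libraries were found by the root mean square difference of centred log2 values. For LOX these were RP11-60A8.1, CDKN1C and DYNLT3, which differed from it by 0.0098 to 0.0157. For LOXL1 they were PEG10, TTC40 and SLC35B1 (0.0267 to 0.0306), and for LOXL2 they were RPLP2, POMGNT2 and CYFIP2 (0.0036 to 0.00866). PTPRG, TMEM231 and CLMN were nearest to LOXL4, and ALG10B, RP11-977G19.10 and AURKA to LOXL3. With 4 libraries such closeness is a description of these values and carries no test.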

How the data were processed

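RNA-seq of MDA-MB-231 cells was analysed in 2 siCt and 2 siAxl libraries, grouped by their titles. The submitters' processing notes name CASAVA 1.8, TopHat2 2.0.10, HTSeq 0.5.3, DESeq2 1.4.5 and build GRCh37. The strand setting and annotation release are not given in the sources used here. The authors deposited, as signal, reads per gene divided by the size factor of the library. They also deposited log2 fold changes, standard errors and Wald statistics (score columns) and p-values of their own comparison, which were not used. In each library 100% of the values were whole multiples of 1 read (tolerance 0.01 reads), so reads were recovered. Libraries of a group differed by more than sampling noise (chi-square per gene 21.9 in siCt and 19.8 in siAxl).

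Genes passing edgeR's filterByExpr on recovered reads (16064) were tested with limma 3.58.1 (lmFit, eBayes with trend, R 4.3.3) on log2 values of the normalized count plus 1, so that changes of low genes come out too small, with Benjamini-Hochberg adjustment over all of them. A gene was called at an adjusted p under 0.05. Alternatives were edgeR 4.0.16 and DESeq2 1.42.0 on recovered reads (3122 and 2596 genes called), other scalings, pseudocounts and filters, a replicate block and leaving out libraries. The fit was also run on simulated counts of independent libraries, with changes set only in genes of higher counts. That run does not cover low genes or libraries from a shared culture. The members and the 6 gene lists, written by hand, were chosen with earlier results of these data known. Named genes are the members, AXL, markers, genes overlapping members, the 3 nearest per member and, per list, the 3 called genes of smallest p in each direction, and others are said to be picked later. Exon lengths, overlaps and transcripts came from GENCODE release 29 (GRCh38), which held 82.5% of the identifiers, and promoters from RefSeq. Coordinates are printed only for RefSeq promoters, in GRCh38.p14, and were not joined to the deposited build.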

Additional observations from a re-analysis of the deposited data

How the results depend on the processing

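LOX, LOXL1 and AXL kept their direction and their call under all 13 alternatives to the limma fit. Their log2 fold changes ran from 0.74 to 0.81, from 0.69 to 1.01 and from -2.07 to -1.79 with 1 library left out. LOXL2 stayed higher under all 13, at 0.31 to 0.42 with 1 library left out. It was no longer called without siAxl 2 (0.31, adjusted p = 0.0603) or with every gene of at least 1 read tested (0.36, adjusted p = 0.0557), where 27108 genes entered. Neither LOXL3 nor LOXL4 was called under any alternative that gave an adjusted p, and DESeq2 gave none for LOXL3. With 1 library left out LOXL3 ran from -0.25 to 0.0074 and LOXL4 from -0.046 to 0.18. The number of members called was 2 to 3. Over all genes, 3006 were called by limma, 1097 with every gene of at least 1 read tested, and 1301 to 3900 with 1 library left out (1301 without siAxl 1, 1518 without siAxl 2). With the replicate number as a block, 7310 were called and no member changed its call, while ATP7A (adjusted p = 0.00238), LOXL1-AS1 (0.00539) and DOK1 (0.00304) were called higher and SNAI1 (0.0259) lower. Deviations of same-numbered libraries from their group means had a correlation of 0.271 across genes, but the labels do not say that a number marks a shared culture or day. The share of LOXL2 in the family level per length was 70.6% in siCt and 70.9% in siAxl with 1 coding transcript as length, chosen after seeing the data. Counts of list genes that moved by over 1.5 times were, for higher calls, 2 to 10 in maturation, copper and tethers (6 in the limma fit, 10 with the block), 9 in collagen modification (14) and 1 to 2 in the SNAI1 list (4). For lower calls they were 0 to 2 in the substrates (1), 0 to 8 in the regulators (2, 8 with the block) and 2 to 3 in the SNAI1 list (1). The cause was not tested. No list shares genes with another, and no member symbol has a further row, so those 2 alternatives gave the same values. LOXL3 is limited by depth, at 43 to 52 reads per library.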
